A study of Mus musculus with 9 samples.

Results

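The enzymes that crosslink and hydroxylate collagen were described here in liver RNA sequencing of mice with diet-induced steatohepatitis. They were chosen by gene name, with earlier results of these data known. They comprise 10 genes of the 24008 in the count table: the lysyl oxidases Lox, Loxl1, Loxl2, Loxl3 and Loxl4, the lysyl hydroxylases Plod1, Plod2 and Plod3, and the prolyl 4-hydroxylase alpha subunits P4ha1 and P4ha2. All 10 passed the filter on low counts and were tested among 14379 genes. The study asked whether FSTL1 made by muscle accounts for the liver changes that follow loss of the transcription factor IRF4 from muscle, and there were 9 livers in 3 groups of 3, with 1 library per mouse. WT mice carried IRF4 (the Flox controls of the study), F4MKO mice lacked it in skeletal muscle through the muscle driver Myl-Cre, and F4MKO+FSTL1 mice were F4MKO mice with FSTL1 overexpressed by an AAV that uses the muscle-specific MCK promoter, injected into the gastrocnemius. The study describes its mice as male, 8 weeks old and on a C57BL/6J background, and also reports some experiments in females. For these groups it gives neither the sex nor the age when the diet began. Per its methods livers were taken 4 weeks after the virus, and WT and F4MKO mice received an AAV with GFP, which the sample labels do not mention. All groups ate a high fat and high carbohydrate diet, for 24 weeks by the description of the design and 12 weeks by that of the virus. No group on a normal diet was analysed here.

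Collagen is hydroxylated while its chains are still in the endoplasmic reticulum and is crosslinked after it has left the cell. Prolyl 4-hydroxylases, whose catalytic alpha subunits are P4ha1 and P4ha2, hydroxylate proline and so make the collagen helix stable at body temperature. Lysyl hydroxylases (Plod1 to Plod3) hydroxylate lysine, which is then a site for sugars and for the more stable kinds of crosslink, and Plod2 acts on the telopeptides at the ends of the chains. The lysyl oxidases are secreted copper enzymes that oxidize lysine and hydroxylysine in collagen and elastin, after which crosslinks form without further catalysis. In fibrotic liver these enzymes are known chiefly from activated stellate cells and portal fibroblasts, and crosslinked collagen is more resistant to degradation.

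The lysyl oxidases are known to share a short stretch of histidine codons that binds the copper ion, and its coding bases are shown because this catalytic domain is what makes the genes below 1 family. The stretch was found by translating the longest coding transcript of Loxl1, Loxl2, Loxl3 and Loxl4 (GENCODE vM21, GRCm38) and searching for H, any residue, C, H, any residue, H, any residue, H, which occurred once in each of these 4. Lox was not searched, and its sequence is not shown here. Sequences run 5′ to 3′ on the coding strand, with the 4 histidine codons in capitals.
Loxl1: CATagctgtCACcaaCATtacCAC
Loxl2: CACgactgcCACaggCACtacCAC
Loxl3: CATgagtgtCATgggCATtacCAC
Loxl4: CACcagtgcCACaggCACtacCAC

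In each of these genes the 24 bases were exonic coding sequence and spanned an exon junction. They lay in exons 3 and 4 of 7 of Loxl1 (chr9:58293720-58294372, minus strand), exons 10 and 11 of 14 of Loxl2 (chr14:69682325-69689037, plus strand), exons 10 and 11 of 14 of Loxl3 (chr6:83050004-83050125, plus strand) and exons 11 and 12 of 15 of Loxl4 (chr19:42598807-42599890, minus strand), where the ranges include the intron. Loxl2 and Loxl4 were identical at 22 of 24 bases. Loxl1 and Loxl4 were identical at 15 of 24, the lowest of the 6 pairs. No 50-base word of the longest transcript of any of the 10 genes occurred in a transcript of another of them, so the enzymes share no such stretch with each other.

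Upstream sequence is shown for 3 genes that differ in what they did in the livers, as given below: Loxl4, which fell with FSTL1, and Plod3 and P4ha1, which were not called. RefSeq promoters on GRCm38.p6 were matched for 5 of the 10 enzymes (Loxl4, Plod1, Plod3, P4ha1 and P4ha2), and the 250 bases before the annotated start were searched on both strands for ACGTG (the core of the hypoxia response element), TGANTCA (the AP-1 site) and TATAAA. Capitals mark a match. The regions are chr19:42612807-42613056 on the minus strand, chr5:136986769-136987018 on the plus strand and chr10:59323046-59323295 on the plus strand.
Loxl4: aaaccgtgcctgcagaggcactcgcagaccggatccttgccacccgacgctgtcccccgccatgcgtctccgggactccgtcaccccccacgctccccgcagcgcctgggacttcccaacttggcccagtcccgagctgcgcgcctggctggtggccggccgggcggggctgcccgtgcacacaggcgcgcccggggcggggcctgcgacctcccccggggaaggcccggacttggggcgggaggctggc
Plod3: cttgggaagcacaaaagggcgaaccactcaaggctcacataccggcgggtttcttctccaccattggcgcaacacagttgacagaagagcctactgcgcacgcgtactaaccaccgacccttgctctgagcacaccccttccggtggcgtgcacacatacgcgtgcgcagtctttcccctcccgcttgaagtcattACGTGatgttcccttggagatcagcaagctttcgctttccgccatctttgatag
P4ha1: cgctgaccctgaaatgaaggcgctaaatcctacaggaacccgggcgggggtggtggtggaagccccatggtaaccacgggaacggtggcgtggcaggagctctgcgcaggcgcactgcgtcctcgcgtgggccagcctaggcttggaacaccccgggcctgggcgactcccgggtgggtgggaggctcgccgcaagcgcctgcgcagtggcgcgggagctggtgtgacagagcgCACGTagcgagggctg

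ACGTG was present in the upstream bases of Plod3 (50 to 54 bases before the start), P4ha1 (12 to 16) and P4ha2 (74 to 78), and in 16.6% of all 32851 promoters in the table. TATAAA was present in that of Plod1 (227 to 232 bases before the start) and in 12.4% of all. TGANTCA was present in none of the 5 and in 6.75% of all. Loxl4 held none of the 3 motifs, which says only that these letters are not in this window. GCGTG, which was not searched, can be read on the strand shown or its complement in the printed bases of Loxl4, Plod3 and P4ha1. GC content of the 5 upstream regions ran from 55.6% (Plod3) to 76.0% (Loxl4), against a median of 52.4% over all promoters.

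The libraries held between 20656976 and 24322984 counted reads, and TMM factors ran from 0.927 to 1.17, highest in F4MKO replicate 1. The 10 hepatocyte markers summed to between 86508 and 119918 CPM (counts per 1000000 reads after TMM normalization) per library, none of them under 1 CPM, as liver should have them. The lowest sum was in F4MKO replicate 1, and the next lowest was 96550 CPM in F4MKO+FSTL1 replicate 2. Irf4 was between 4.24 and 6.06 CPM in 8 libraries and 0.467 CPM in F4MKO+FSTL1 replicate 1, which stands apart in this gene. Because the deletion is in muscle, Irf4 in liver does not check the genotype. Fstl1 in liver was 6.15, 7.62 and 6.52 CPM in WT, 16.1, 9.80 and 11.3 in F4MKO and 5.33, 3.22 and 4.33 in F4MKO+FSTL1, and this does not check the virus, which was placed in muscle. By qPCR the study reports no change of Fstl1 RNA in liver after the virus. The sequenced values differ from that report, as every F4MKO+FSTL1 liver lay under every F4MKO liver. This pattern was seen in 21.1% of all genes tested, and the reason for the difference was not tested.

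Overexpression of FSTL1 in muscle was accompanied by lower RNA of every lysyl oxidase and of Plod2 in the F4MKO liver. In F4MKO+FSTL1 compared with F4MKO, 6 of the 10 enzymes were called and all 6 were lower, by 1.86-fold to 4.47-fold, while Plod1, Plod3, P4ha1 and P4ha2 were not called and differed from F4MKO by at most 0.19 on the log2 scale. A gene was called at an adjusted p under 0.05 and a fold change above 1.5. By this rule 14.4% of all genes tested were called in this comparison, 11.2% lower and 3.21% higher, so the 6 of 10 stand beside 11.2%. The same 6 enzymes were lower in every F4MKO+FSTL1 library than in every F4MKO library, a pattern seen in 21.1% of all genes tested. The median log2 fold change was -0.998 over the 10 enzymes and 0.01 over all genes. In bulk liver, fewer cells of a type and less RNA per cell cannot be told apart.

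**Figure D1:**
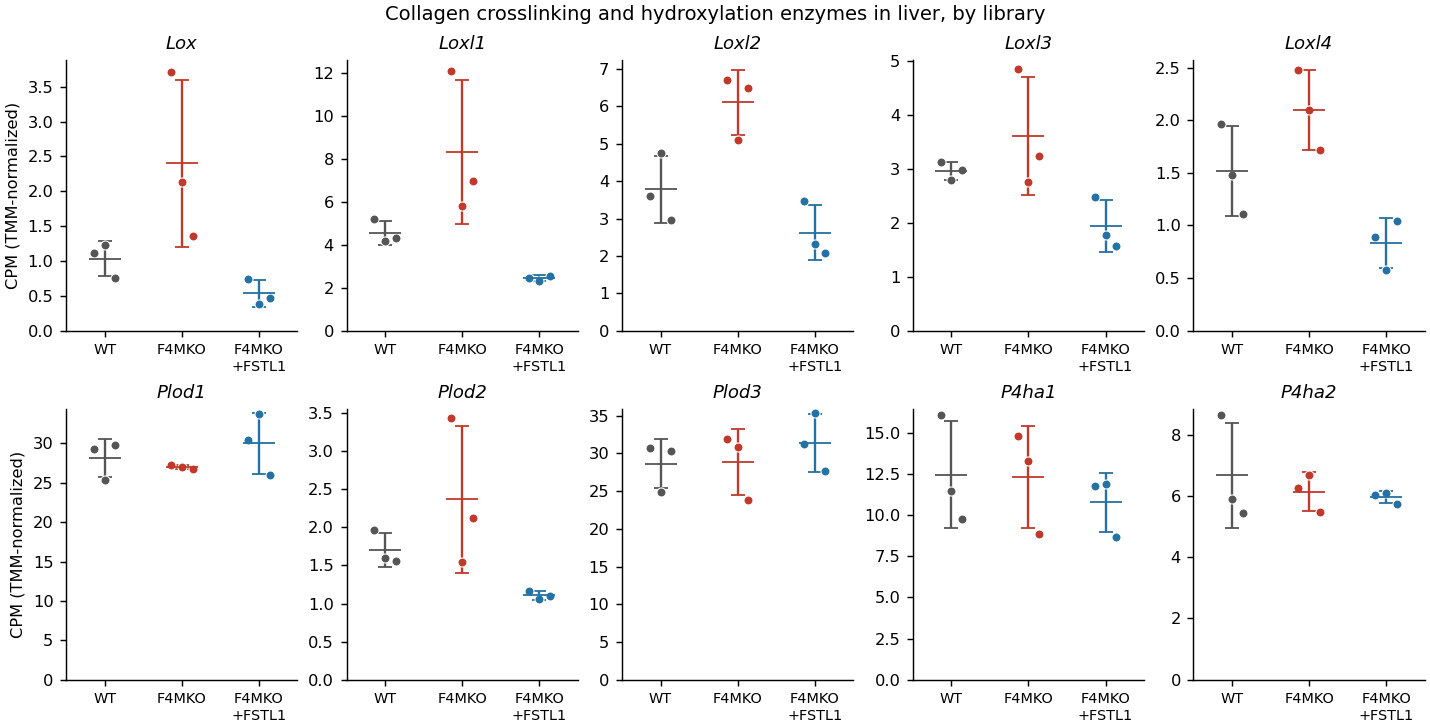
CPM after TMM normalization (vertical axes, each from 0) of the 10 enzymes in WT, F4MKO and F4MKO+FSTL1 liver; points are libraries, horizontal lines means and bars SD of 3 mice. The 5 lysyl oxidases and Plod2 lie lower in all 3 F4MKO+FSTL1 livers than in any F4MKO liver and are highest in F4MKO replicate 1 (the left red point), while the groups overlap for Plod1, Plod3, P4ha1 and P4ha2.

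Lox, the founding enzyme of the crosslinking family, was the member with the largest fall and the fewest reads. It was at 1.11, 1.23 and 0.754 CPM in WT, 3.71, 2.14 and 1.36 CPM in F4MKO and 0.748, 0.384 and 0.470 CPM in F4MKO+FSTL1. The F4MKO livers spread widely and did not overlap with either other group. Lox fell 4.47-fold with FSTL1 (log2 fold change -2.16, SE 0.42; edgeR adjusted p = 0.00522), from 34 to 105 reads per library in F4MKO to 8 to 16 in F4MKO+FSTL1.

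Loxl1, which is needed for the deposition of elastic fibres, had the highest level per transcript length in its family. Its CPM were 5.22, 4.18 and 4.30 in WT, 12.1, 5.82 and 6.99 in F4MKO and 2.48, 2.31 and 2.56 in F4MKO+FSTL1. The 3 groups were fully separate, and the F4MKO+FSTL1 livers lay close together. The fall from F4MKO to F4MKO+FSTL1 was 3.40-fold (log2 fold change -1.77, SE 0.26; edgeR adjusted p = 0.00182), the smallest adjusted p among the 10 enzymes.

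Loxl2 to Loxl4 carry scavenger receptor domains in front of the oxidase domain, and Loxl2 is known for crosslinking basement membrane collagen IV. Loxl2 was at 3.61, 4.75 and 2.97 CPM in WT, 6.72, 5.11 and 6.51 CPM in F4MKO and 3.46, 2.31 and 2.09 CPM in F4MKO+FSTL1. F4MKO lay apart from both other groups, which overlapped with each other. With FSTL1 it fell 2.33-fold (log2 fold change -1.22, SE 0.24; edgeR adjusted p = 0.00530).

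Loxl3, known from skeletal development, had the smallest fall of the 6. CPM of Loxl3 were 3.12, 2.79 and 2.97 in WT, 4.85, 2.76 and 3.23 in F4MKO and 2.48, 1.78 and 1.57 in F4MKO+FSTL1. F4MKO replicate 2 was the lowest of the F4MKO and WT livers, yet above every F4MKO+FSTL1 liver. The fall was 1.86-fold (log2 fold change -0.90, SE 0.25; edgeR adjusted p = 0.0279). Without F4MKO replicate 1 the log2 fold change was -0.62, and Loxl3 was then not called.

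Loxl4, the last of the oxidases, was at 1.96, 1.48 and 1.11 CPM in WT, 2.48, 2.09 and 1.72 CPM in F4MKO and 0.888, 0.577 and 1.04 CPM in F4MKO+FSTL1. WT and F4MKO overlapped, and F4MKO+FSTL1 lay under both. The fall with FSTL1 was 2.51-fold (log2 fold change -1.33, SE 0.30; edgeR adjusted p = 0.0112).

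Plod2, the telopeptide lysyl hydroxylase, was the scarcest of the lysyl hydroxylases and the only one called. Its CPM were 1.96, 1.598 and 1.55 in WT, 3.43, 1.55 and 2.12 in F4MKO and 1.17, 1.06 and 1.10 in F4MKO+FSTL1. The F4MKO+FSTL1 livers, with 21 to 25 reads each, lay close together and under all others. It fell 2.14-fold (log2 fold change -1.10, SE 0.30; edgeR adjusted p = 0.0244). Without F4MKO replicate 1 the value was -0.73, and Plod2 was then not called.

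Plod1 and Plod3, which act on helical lysines and of which Plod3 also attaches sugars to hydroxylysine, were the most abundant of the 10. Plod1 ranged from 25.3 to 29.8 CPM in WT, 26.7 to 27.3 CPM in F4MKO and 26.0 to 33.7 CPM in F4MKO+FSTL1. Plod3 ranged from 24.9 to 30.7 CPM in WT, 23.8 to 31.9 CPM in F4MKO and 27.6 to 35.3 CPM in F4MKO+FSTL1. All groups overlapped for both genes. Against F4MKO, F4MKO+FSTL1 differed by 0.15 on the log2 scale for Plod1 (95% interval -0.09 to 0.39) and by 0.12 for Plod3 (-0.18 to 0.42). For both these intervals lay above that of Plod2 (-1.76 to -0.44), although the difference between the genes was not tested.

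P4ha1 was at 16.05, 11.5 and 9.76 CPM in WT, 14.8, 13.3 and 8.86 CPM in F4MKO and 11.7, 11.9 and 8.67 CPM in F4MKO+FSTL1. P4ha2 was at 8.65, 5.90 and 5.46 CPM in WT, 6.26, 6.70 and 5.47 CPM in F4MKO and 6.03, 6.10 and 5.75 CPM in F4MKO+FSTL1. The spread within a group was as large as any step between groups. F4MKO+FSTL1 differed from F4MKO by -0.19 on the log2 scale for P4ha1 (95% interval -0.68 to 0.30) and by -0.04 for P4ha2 (-0.44 to 0.35). The P4ha1 interval includes a 1.5-fold fall (0.58 on the log2 scale), so a fall of that size could not be told from none.

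Leaving out 1 library ended some of these calls. The 6 fallen enzymes each had their highest level in F4MKO replicate 1, and without that library 4 of them were called (Lox, Loxl1, Loxl2 and Loxl4). Without F4MKO+FSTL1 replicate 2, 3 were called (Lox, Loxl1 and Loxl2), without replicate 1, where Irf4 was low, 5 were called (all but Plod2), and without replicate 3, 4 were called (Lox, Loxl1, Loxl2 and Loxl4). Where an F4MKO+FSTL1 library was left out, the log2 fold changes of the lost enzymes were -1.14 to -1.06 for Plod2, -0.83 and -0.76 for Loxl3 and -1.11 for Loxl4, against -1.10, -0.90 and -1.33 with all libraries. Without F4MKO replicate 1 they were -0.62 for Loxl3 and -0.73 for Plod2.

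**Figure D2:**
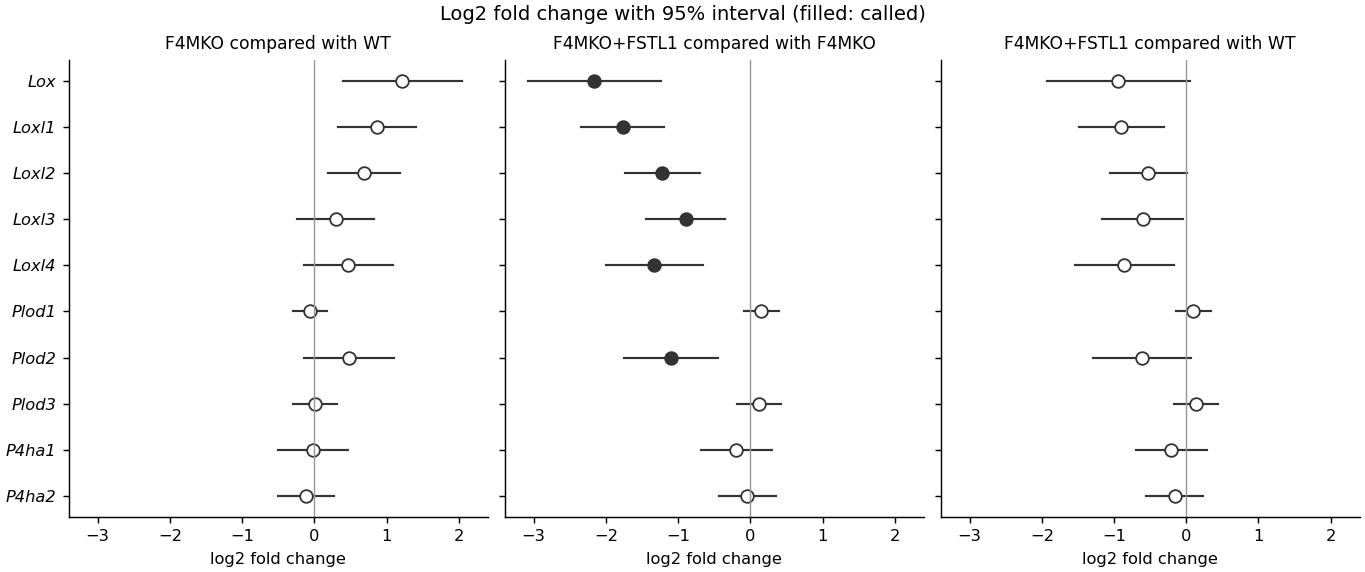
Log2 fold change (horizontal axis) of each enzyme in the 3 comparisons, with its 95% interval as a line; filled points were called. In F4MKO+FSTL1 compared with F4MKO, 6 points are filled, from -2.16 (Lox) to -0.90 (Loxl3), and in the other comparisons none is.

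Loss of IRF4 from muscle was accompanied by higher values of Lox, Loxl1 and Loxl2 in liver, none of which was called. In F4MKO compared with WT, 0 of the 10 enzymes were called by edgeR, beside 0.271% of all genes tested. Of all 14379 genes tested 2424 had an unadjusted p under 0.05, as did 3 of the 10 enzymes. Those were Lox (log2 fold change 1.22, SE 0.38; edgeR adjusted p = 0.151), Loxl1 (0.87, SE 0.24; edgeR adjusted p = 0.122) and Loxl2 (0.69, SE 0.23; edgeR adjusted p = 0.169). Each of the 3 was higher in every F4MKO liver than in any WT liver, which held for 11.7% of all genes. DESeq2 called Loxl1, with an adjusted p of 0.0454. For Loxl3, Loxl4 and Plod2 the values were 0.29 (95% interval -0.23 to 0.82), 0.47 (-0.14 to 1.08) and 0.48 (-0.14 to 1.10). The other 4 enzymes lay between -0.12 (P4ha2) and 0.01 (Plod3).

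F4MKO+FSTL1 livers lay under WT in the lysyl oxidases, also with no call. In F4MKO+FSTL1 compared with WT, 0 of 10 enzymes were called by edgeR or by DESeq2, beside 0.00695% of all genes tested (edgeR). Of all 14379 genes tested 1924 had an unadjusted p under 0.05, as did 3 of the 10 enzymes. Those 3 were Loxl1 (log2 fold change -0.90, SE 0.27; edgeR adjusted p = 0.182), Loxl4 (-0.86, SE 0.31; edgeR adjusted p = 0.262) and Loxl3 (-0.60, SE 0.26; edgeR adjusted p = 0.338). Lox, Loxl1, Loxl3, Loxl4 and Plod2 were lower in every F4MKO+FSTL1 liver than in any WT liver, 5 of 10 beside 10.7% of all genes. Loxl2 had a value of -0.53 (95% interval -1.06 to 0.01), and its groups overlapped. The F4MKO livers enter both of the first comparisons, with opposite sign, so their values are not independent of each other.

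Per kilobase of the longest transcript, Plod1, Plod3, P4ha1 and P4ha2 were more abundant in WT liver than the oxidases. The hydroxylase Plod2 lay under Loxl1, Loxl2 and Loxl3. The order of the WT levels was Plod3 (8.73 CPM per kb, SD 0.99), Plod1 (6.87, SD 0.60), P4ha1 (3.07, SD 0.80), P4ha2 (2.18, SD 0.56), Loxl1 (1.39, SD 0.17), Loxl3 (0.722, SD 0.041), Loxl2 (0.711, SD 0.17), Plod2 (0.465, SD 0.061), Loxl4 (0.405, SD 0.11) and Lox (0.218, SD 0.052). Neighbours whose WT libraries overlapped were P4ha1 and P4ha2, Loxl3 and Loxl2, and Plod2 and Loxl4. All other neighbours were separate in the 3 WT livers. With the union of exons as length, P4ha2 (1.07 CPM per kb) came under Loxl1 (1.39), Loxl3 under Loxl2 and Plod2 under Loxl4. Every enzyme called with FSTL1 stood in the lower part of this order, from Loxl1 down.

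**Figure D3:**
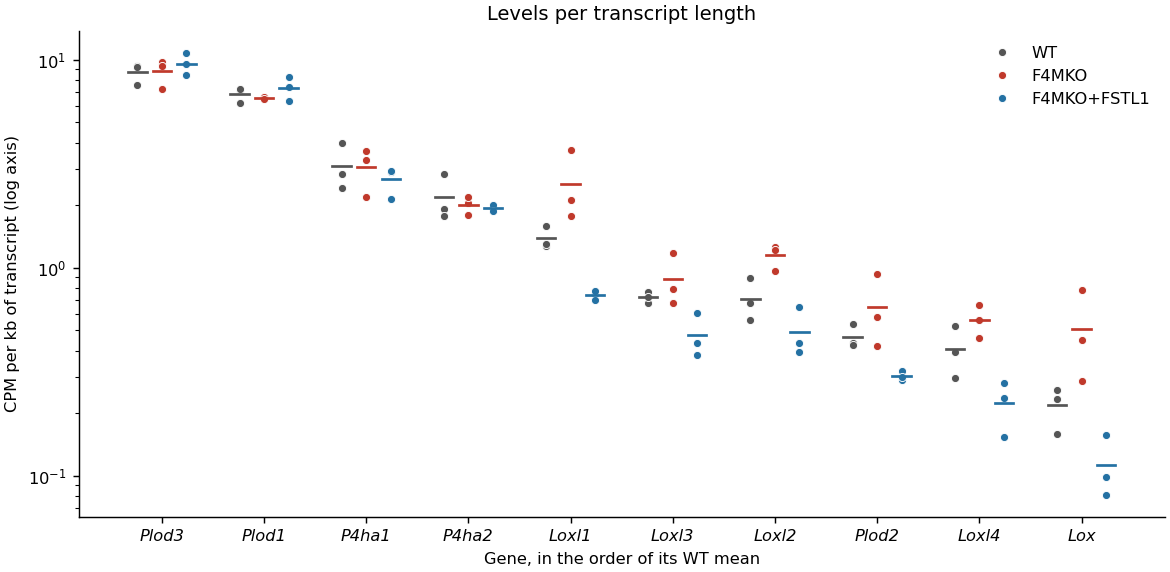
Level per kilobase of the longest transcript (CPM per kb, log axis) of the 10 enzymes, ordered by their WT mean; points are libraries and short lines group means. Plod3 and Plod1 lie near the top in every group, and the 6 enzymes from Loxl1 to Lox are lowest in F4MKO+FSTL1.

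Summed per transcript length, the 5 lysyl oxidases were at 3.44 ± 0.37 CPM per kb in WT, 5.62 ± 1.71 in F4MKO and 2.04 ± 0.32 in F4MKO+FSTL1 (SD, n = 3 each), with no overlap between any of the groups. The 3 lysyl hydroxylases were at 16.1 ± 1.6, 16.03 ± 1.5 and 17.2 ± 2.1 CPM per kb and the 2 alpha subunits at 5.25 ± 1.37, 5.05 ± 0.94 and 4.61 ± 0.51, both with overlap. Within the oxidases Loxl1 held 40.3 ± 3.5% of the sum in WT, 44.0 ± 4.3% in F4MKO and 36.8 ± 4.8% in F4MKO+FSTL1, which overlapped. The share of Loxl3 was 15.7 ± 0.4% in F4MKO, under every WT liver (21.1 ± 2.3%) and every F4MKO+FSTL1 liver (23.0 ± 2.8%). Plod2 held 2.90 ± 0.35% of the lysyl hydroxylases in WT, 4.001 ± 1.41% in F4MKO and 1.78 ± 0.25% in F4MKO+FSTL1, where it was lower in every liver than in the others. These shares are descriptions with no test.

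The enzymes were also set against the collagens they modify. Reads of Col1a1, Col1a2 and Col3a1, the chains of the main fibrillar collagens I and III, summed to 90.1 ± 12.7 CPM in WT, 195 ± 56 in F4MKO and 51.7 ± 13.2 in F4MKO+FSTL1. These directions are opposite to those of the study, which by qPCR reports Col1a1 and Col1a2 lower in F4MKO than in Flox liver. It also reports fibrosis genes to be higher again with FSTL1. The reason for this difference was not tested. Per 1000 of these collagen reads the lysyl oxidases had 155 ± 13 reads in WT, 116 ± 13 in F4MKO and 164 ± 14 in F4MKO+FSTL1. F4MKO lay under both other groups in all 3 livers. Lox alone had 11.4 ± 1.4, 11.8 ± 2.8 and 10.2 ± 1.4 reads per 1000 collagen reads, with the groups overlapping. The other oxidases differed in this: Loxl3 had 33.4 ± 5.8, 18.6 ± 2.5 and 37.6 ± 2.0 reads per 1000 collagen reads, with F4MKO under both other groups. Loxl4 also had its lowest ratio in F4MKO, where all 3 livers lay under the others, and the F4MKO+FSTL1 ratio was 1.53 times that of F4MKO. For Loxl1 the ratios of the groups overlapped, as they did for Loxl2 between WT and F4MKO.

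Of the family sums, those of the hydroxylases had the larger steps in this ratio. Lysyl hydroxylases had 663 ± 148 reads per 1000 collagen reads in WT, 309 ± 59 in F4MKO and 1256 ± 315 in F4MKO+FSTL1, and the 3 groups were separate. P4ha1 and P4ha2 together had 213 ± 53, 96.6 ± 17.4 and 333 ± 69, with F4MKO under both other groups. F4MKO+FSTL1 had 4.06 times the lysyl hydroxylase ratio of F4MKO, 3.45 times the prolyl 4-hydroxylase ratio and 1.42 times the lysyl oxidase ratio. Plod2 departed from Plod1 and Plod3, with a ratio in F4MKO+FSTL1 1.85 times that of F4MKO, against 4.15 times for each of the others and 2.03 times for the oxidase Loxl3. These ratios were not tested. The collagen sum in their denominator was in F4MKO+FSTL1 0.265 times that of F4MKO. The family sums per transcript length were 1.07 times for the lysyl hydroxylases, 0.912 times for the alpha subunits and 0.364 times for the lysyl oxidases. The steps of the hydroxylase ratios thus came mainly from the fall of the collagen reads, and not from a rise of the hydroxylases.

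**Figure D4:**
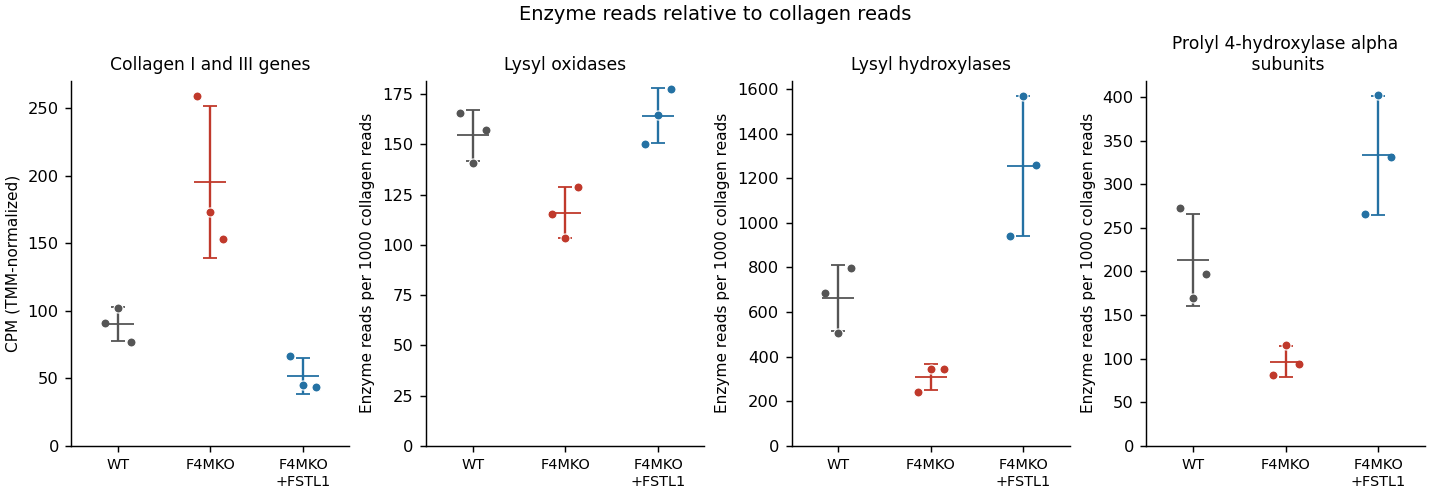
Summed CPM of Col1a1, Col1a2 and Col3a1 (left) and reads of each enzyme family per 1000 reads of those collagen genes (other panels), all axes from 0; points are libraries, lines means and bars SD of 3 mice. Collagen is highest in F4MKO (195 CPM), where all 3 ratios are lowest.

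The partners of the hydroxylases in the endoplasmic reticulum fell only in part. Of 11 tested genes for folding, hydroxylation and glycosylation of procollagen, 4 fell and 0 rose in F4MKO+FSTL1 compared with F4MKO, with a median log2 fold change of -0.68. Over all genes tested 11.2% were called lower and 3.21% higher in this comparison. Fkbp10, a folding enzyme that Plod2 needs, fell 2.56-fold (log2 fold change -1.36, SE 0.23; edgeR adjusted p = 0.00325). Its level was 3.09 ± 0.65 CPM in F4MKO and 1.21 ± 0.09 in F4MKO+FSTL1, against 2.04 ± 0.31 in WT. Serpinh1, the collagen chaperone HSP47, fell 2.20-fold (-1.14, SE 0.25; edgeR adjusted p = 0.00857). P3h3, a prolyl 3-hydroxylase family protein that works with Plod1, fell 1.91-fold (-0.93, SE 0.19; edgeR adjusted p = 0.00631). The 4th was Crtap, the partner of P3h1, at -0.88 (chosen after its value was seen). P4ha3 and Colgalt2 had too few reads to be tested.

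Among 10 tested genes for the export and cleavage of procollagen, 3 fell and 0 rose, with a median of -0.12. By the same rule 11.2% of all genes tested fell and 3.21% rose. Adamts2 and Adamts14, which remove the amino-terminal propeptide, fell 2.75-fold (log2 fold change -1.46, SE 0.20; edgeR adjusted p = 0.00154) and 2.63-fold (-1.39, SE 0.31; edgeR adjusted p = 0.00926). Pcolce, the enhancer of carboxy-terminal cleavage, fell 1.65-fold (-0.72, SE 0.14; edgeR adjusted p = 0.00540). Adamts3, Tll1 and Tll2 had too few reads to be tested.

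Among the 6 pathway lists the substrates had the lowest median. Of 9 tested collagen chains and elastin, 8 fell and 0 rose, beside 11.2% and 3.21% of all genes tested. Their median was -1.63. Eln (elastin) fell 5.17-fold, from 16.8 ± 7.7 to 3.25 ± 0.63 CPM (log2 fold change -2.37, SE 0.32; edgeR adjusted p = 0.00144). Col1a1 fell 4.76-fold, from 39.8 ± 15.9 to 8.34 ± 2.77 CPM (-2.25, SE 0.31; edgeR adjusted p = 0.00152). Col3a1 fell 3.95-fold, from 98.5 ± 27.0 to 24.9 ± 6.4 CPM (-1.98, SE 0.21; edgeR adjusted p = 0.000751). Col2a1, Col11a1 and Col11a2, chains of cartilage collagens, had too few reads to be tested.

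Matrix proteins around the crosslinked fibres moved alike, with 9 of 11 tested genes lower and 0 higher and a median of -0.99. Of all genes tested 11.2% were called lower and 3.21% higher. Lum, a small proteoglycan on collagen fibrils, fell 3.58-fold (log2 fold change -1.84, SE 0.22; edgeR adjusted p = 0.00107). Fbn1, the microfibril protein fibrillin 1, fell 2.79-fold (-1.48, SE 0.20; edgeR adjusted p = 0.00140). Mfap4 fell 2.38-fold (-1.25, SE 0.40; edgeR adjusted p = 0.0463). In F4MKO compared with WT, 0 of the 41 tested genes of these 4 lists were called by edgeR, beside 0.271% of all genes. An unadjusted p under 0.05 was found for 20 of the 41, beside 2424 of all 14379 genes tested. DESeq2 called 11, of which 7 were substrates, beside 338 of 15162 genes. Eln (1.69, SE 0.30; edgeR adjusted p = 0.0532) and Col1a1 (1.41, SE 0.30; edgeR adjusted p = 0.0610) were above the adjusted threshold, as were Col3a1 (1.12, SE 0.20; edgeR adjusted p = 0.0548) and Fbn1 (0.998, SE 0.19; edgeR adjusted p = 0.0583). In F4MKO+FSTL1 compared with WT 0 of the 41 were called by edgeR and DESeq2 called 4. Of all genes edgeR called 0.00695% and DESeq2 284 of 14231. There 21 of the 41 had an unadjusted p under 0.05, beside 1924 of all 14379 genes tested. The medians were -0.21, -0.04, -0.68 and -0.48 for folding, processing, substrate and fibre genes. The lists were drawn up with earlier results of these data known.

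**Figure D5:**
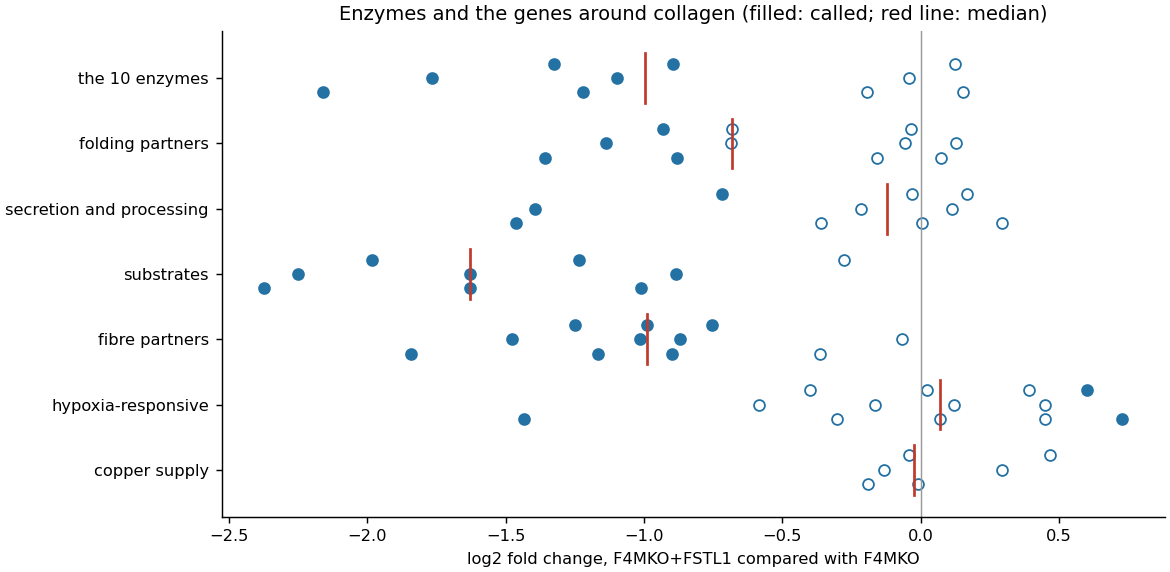
Log2 fold change in F4MKO+FSTL1 compared with F4MKO (horizontal axis) of the 10 enzymes and of the tested genes in the 6 pathway lists (cell type markers are not drawn); filled points were called and red lines are list medians. Filled points lie to the left of 0 except for 2 hypoxia-responsive genes, and the substrate median (-1.63) is the lowest of the medians drawn.

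Genes that respond to low oxygen were looked at because Lox, Plod2, P4ha1 and P4ha2 are known hypoxia targets. In F4MKO+FSTL1 compared with F4MKO, 2 of 13 rose and 1 fell, beside 3.21% and 11.2% of all genes tested. Their median was 0.07. Ndrg1, a stress-response gene, fell 2.70-fold (log2 fold change -1.43, SE 0.22; edgeR adjusted p = 0.00206). Bnip3, a mitochondrial receptor for autophagy, rose 1.65-fold (0.73, SE 0.19; edgeR adjusted p = 0.0216). Pdk1, a kinase that limits pyruvate oxidation, rose 1.52-fold (0.60, SE 0.10; edgeR adjusted p = 0.00320). Egln3 (0.45), Vegfa (0.45) and Egln1 (0.39) also passed the adjusted p, all higher, but not the fold threshold, so that 5 genes of the list were higher and 1 lower at an adjusted p under 0.05; these 3 were named after their values were seen, as were the next pair. With no fold threshold 3001 of all 14379 genes tested passed the adjusted p in that comparison, 37.1% of them higher. Of the 6 genes that carry copper into and through the cell, 0 were called there by edgeR or DESeq2, and the median was -0.03. Ccs and Slc31a1 were higher at an adjusted p under 0.05 (edgeR adjusted p = 0.0250 and 0.0469) and missed only the fold threshold. Their groups did not overlap, a pattern seen in this direction in 18% of all genes tested. The 3 with the largest change were Ccs, the chaperone of superoxide dismutase (0.47), Slc31a1, the copper importer (0.29), and Slc31a2 (-0.19). In F4MKO compared with WT and in F4MKO+FSTL1 compared with WT, 0 genes of either list were called by edgeR. Unadjusted p-values under 0.05 were found there for 1 and 6 hypoxia-responsive genes and for 2 and 0 copper genes, beside 2424 and 1924 of all 14379 genes tested. DESeq2 called 1, a hypoxia-responsive gene in the second of these comparisons, beside 284 of 14231 genes.

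Markers of several cell types were lower along with the enzymes in F4MKO+FSTL1 compared with F4MKO. The counts below stand beside 11.2% of all genes tested called lower there and 3.21% called higher. Of 9 tested stellate cell and myofibroblast markers 3 fell in F4MKO+FSTL1 compared with F4MKO, and the 10 listed summed to 517 to 562 CPM in WT, 571 to 655 in F4MKO and 373 to 508 in F4MKO+FSTL1. Tagln, a myofibroblast marker, was under 1 CPM in every library. Of 10 macrophage markers 7 fell, with sums of 556 to 904, 731 to 838 and 340 to 517 CPM. Cholangiocyte markers fell in 4 of 6, with sums of 28.8 to 34.5, 43.6 to 73.5 and 22.8 to 27.5 CPM, and portal fibroblast and mesothelial markers in 2 of 6, with sums of 18.6 to 24.3, 21.1 to 22.4 and 12.9 to 16.1 CPM. Of 10 endothelial, 7 lymphocyte and 10 hepatocyte markers 0 were called by edgeR. Among them 2, 1 and 2 had an unadjusted p under 0.05, beside 5080 of all 14379 genes tested. In F4MKO compared with WT, edgeR called 1 macrophage and 2 cholangiocyte markers, all higher, beside 0.271% of all genes tested. Median log2 fold changes there were 0.24 for stellate, 0.11 for macrophage, 1.07 for cholangiocyte and -0.44 for portal fibroblast and mesothelial markers. In F4MKO+FSTL1 compared with WT edgeR called no marker of the 7 lists. In that comparison 9 of 10 macrophage markers had an unadjusted p under 0.05, beside 1924 of all 14379 genes tested. Cftr was under 1 CPM in every WT and F4MKO+FSTL1 library, Upk1b in every F4MKO and F4MKO+FSTL1 library, Trem2 in every F4MKO+FSTL1 library, and Cd3d and Cd3e in every library. F4MKO replicate 1 had the highest cholangiocyte sum (73.5 CPM) and the lowest endothelial sum (233 CPM) of all libraries. Its hepatocyte sum was also the lowest, and its other marker sums lay within the range of the other libraries. The part of these cell types in the fall of the enzymes was not tested.

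The 5 lysyl oxidases and Plod2 were correlated over all libraries, groups pooled. Within a group they did not always move alike. From F4MKO replicate 2 to replicate 3, Lox fell from 0.450 to 0.286 CPM per kb and Loxl1 rose from 1.77 to 2.12. Over the 9 libraries Pearson's r of log2 CPM was between 0.78 (Loxl3 with Loxl4) and 0.97 (Loxl1 with Plod2) in their 15 pairs, with a median of 0.88. Between these 6 and the other 4 enzymes r ran from -0.64 to 0.50 in 24 pairs, with a median of -0.03. The grouping follows the calls above, and the libraries share their group differences, so these are descriptions.

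Among 12539 other genes with a mean of at least 1 CPM, those whose log2 CPM was most like that of a called enzyme over the 9 libraries are named here, 3 for each enzyme. For Loxl1 they were Mmp2, a gelatinase (r = 0.99), Tpm4, a tropomyosin (0.99) and Tbx2, a transcription factor (0.99). For Lox they were Sptan1, a spectrin (0.99), Antxr1, a collagen-binding membrane protein (0.98) and Frzb, a secreted Wnt antagonist (0.98). Loxl2 had Robo2, a guidance receptor (0.97), Fbln5, the elastic fibre protein fibulin 5 (0.97) and Scube1 (0.97). For Plod2 they were Pdgfrb, a growth factor receptor that is also on the stellate list (0.99), Htra1, a secreted protease (0.98) and Gdf10 (0.97). Loxl3 had Endod1 (0.99), Islr (0.98) and Pdgfrb (0.98). For Loxl4 they were Fmnl2, a formin (0.97), Pkmyt1, a cell cycle kinase (0.97) and Impact (0.96). Between 109 (Loxl3) and 461 (Loxl1) genes had an r above 0.9.

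The genes lie apart in the genome (GRCm38). Loxl1 and Plod2 are both on chromosome 9, at chr9:58287738-58313186 and chr9:92542223-92608428. Loxl2 is at chr14:69609068-69695834, Loxl3 at chr6:83034173-83052562, Loxl4 at chr19:42593982-42612813, Plod1 at chr4:147909753-147936767, Plod3 at chr5:136987019-136996648, P4ha1 at chr10:59323296-59373304, P4ha2 at chr11:54100095-54131665 and Lox at chr18:52516067-52529867. Several share exon bases with a gene on the other strand, and the use of strand in counting is not given in the sources used here, so such reads could be assigned differently. Loxl3 shares 535 bases with Htra2, which had a log2 fold change of -0.01 (SE 0.11) in F4MKO+FSTL1 compared with F4MKO. Plod3 shares 529 with Znhit1, which had 973 to 1281 reads per library and a log2 fold change of 0.32 (SE 0.12; edgeR adjusted p = 0.0722) there. Plod2 shares 346 with Gm38391, Loxl2 301 with Gm27177 and Lox 30 with AC161119.1. Gm27177 had 0 to 5 reads per library.

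Loxl2 has a near copy. Of the 5267 50-base words of its longest transcript, 45.8% also occurred in transcripts of other genes, and 2299 words were shared with the pseudogene Gm21451, which had 1 to 5 reads per library. How reads that map to several places were counted is not given in the sources used here, so the level of Loxl2 is uncertain. Lox, Loxl1, Loxl4, P4ha1 and P4ha2 shared no such word with any other gene.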

How the data were processed

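Liver RNA of 9 mice, 3 per group, was sequenced as 150 bp paired-end reads on BGIseq500. Per the labels and methods, the authors trimmed reads with Trim Galore 0.6.7, mapped them to mm10 with HISAT2 2.2.1, counted them on genes with featureCounts 2.0.1 and deposited the raw counts of each library. The annotation, the use of strand and the treatment of reads mapping to several places are not given in the sources used here. Groups come from the sample labels. Replicates are separate mice.

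Differential expression was tested with edgeR 4.0.16 in R 4.3.3 (filterByExpr with a minimum count of 10 and a minimum total of 15, TMM factors, a single quasi-likelihood fit of group means to all 9 libraries, Benjamini-Hochberg adjustment over 14379 genes). The thresholds were an adjusted p under 0.05 and a fold change above 1.5. Library totals were 20656976 to 24322984 reads, and the biological coefficient of variation was 0.150. With 3 mice per group this limits precision more than depth does, except for genes with few reads. Among the called enzymes these include Lox, Loxl4, Plod2 and Loxl3. Values are CPM after TMM normalization, as mean ± SD of 3 mice, and a prior count of 2 was added for log2 CPM. Levels per length used the longest GENCODE vM21 transcript.

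The members and gene lists were chosen with earlier results of these data known. Named genes are the 10 members, in each pathway list the genes called in F4MKO compared with WT and the 3 with the largest change in F4MKO+FSTL1 compared with F4MKO, the 3 genes of most like pattern for each called member, Irf4 and Fstl1. Alternatives were DESeq2 1.42.0, its size factors in edgeR, no filter, a fit of only the groups compared, a replicate block, no fold threshold, removal of a length and GC trend (both known for 93.1% of tested genes), the union of exons as length, and each library left out in turn.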

Additional observations from a re-analysis of the deposited data

How the results depend on the processing

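Enzymes called in F4MKO+FSTL1 compared with F4MKO numbered 6 under DESeq2, DESeq2 size factors, no filter, no fold threshold and removal of the length and GC trend, 5 with only the libraries of those groups (without Loxl3) and 3 to 6 with 1 library left out, with the lowest count without F4MKO+FSTL1 replicate 2. Lox, Loxl1 and Loxl2 were called in all 16 alternatives, and the 6 called enzymes kept their direction in all of them. The log2 fold change ran from -2.48 to -1.69 for Lox, -1.97 to -1.39 for Loxl1, -1.47 to -1.08 for Loxl2, -1.11 to -0.62 for Loxl3, -1.50 to -1.11 for Loxl4 and -1.32 to -0.73 for Plod2. All genes called in that comparison numbered 2070 in the main analysis and 1295 to 2216 with 1 library left out, lowest without F4MKO+FSTL1 replicate 2 and 1335 without F4MKO replicate 1. With no fold threshold 3001 were called, 37.1% of them higher against 23.2% with DESeq2 size factors.

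In F4MKO compared with WT, where edgeR called 0 enzymes and 39 genes, DESeq2 called 1 enzyme and 338 genes, no filter 2 enzymes (Lox and Loxl1) and 478 genes, and only the libraries of those groups 11 genes. Leaving out 1 library gave 0 enzymes and 0 to 100 genes. In F4MKO+FSTL1 compared with WT, with 0 enzymes and 1 gene, DESeq2 called 284 genes, no filter 1 enzyme (Loxl1) and 379 genes, DESeq2 size factors 2 genes, removal of the length and GC trend 2 genes, and only the libraries of those groups 0 genes. Leaving out 1 library gave 0 enzymes and 0 to 101 genes. The cause of these differences was not tested.

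Replicate numbers are shared between groups only as numbers. After removal of group means, libraries with the same number correlated at 0.098 on average (lowest 0.042) for F4MKO and WT, 0.17 (lowest 0.092) for both F4MKO groups and 0.036 (lowest -0.099) for WT and F4MKO+FSTL1. With the replicate block, 134, 2170 and 15 genes were called in the 3 comparisons, in the order used above for the correlations, and 0, 6 and 0 enzymes. With the replicate block and the length and GC trend removed, 93, 2131 and 12 genes were called. Reads per library in F4MKO+FSTL1 were 8 to 16 for Lox, 12 to 20 for Loxl4 and 21 to 25 for Plod2. Such low counts limit how well the falls of these enzymes are known. Of the recomputed shares within a family, 13 moved by more than the SD between mice, all with the union of exons as length. That length changed the WT share of P4ha2 from 41.5% to 26.2%. The other 107 shares stayed within the SD. Leaving out a library cannot move a mean of 3 mice by as much as their SD. Shares recomputed that way therefore had to stay within it, and they do not test how stable the shares are.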
